A study of Mus musculus with 6 samples.

Results

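TGF-beta and bone morphogenetic protein (BMP) signaling genes were followed in cultured mouse aortic smooth muscle cells (MASMCs) that differed in Pdk4, which encodes pyruvate dehydrogenase kinase 4, a brake on the entry of pyruvate into mitochondrial oxidation. The 36 genes were chosen by name, with earlier results of these data known. They are ligands of the TGF-beta, BMP and activin branches, their receptors, the Smads, secreted and intracellular inhibitors, and classical target genes. All 36 had a row among the 41721 genes of the count table, and all 36 had enough counts to be tested. The comparison was between 2 genotypes with 3 RNA-seq libraries each. Pdk4fl/fl cells came from mice with loxP sites around part of Pdk4 and no Cre. Pdk4SMKO cells are described as coming from mice that carry the same floxed allele together with a tamoxifen-inducible Cre under the smooth muscle Myh11 promoter. Mice of both genotypes received tamoxifen at 6 weeks of age and gave their aortas at 10 weeks, and the labels name the abdominal aorta. MASMCs were used at passages 4 to 8, and every library, control libraries included, was from cells given angiotensin II (Ang II), at 1 µM for 48 h, so no untreated level was measured here. The study describes the 3 libraries of a genotype as biological replicates, but the labels do not tie them to separate mice or cultures, and the p-values measure the spread between these libraries.

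TGF-beta, activins and BMPs are secreted dimers that bring together type I and type II receptor kinases. Receptors of the TGF-beta and activin branch phosphorylate Smad2 and Smad3, those of the BMP branch phosphorylate Smad1, Smad5 and Smad9, and both sets join Smad4 and enter the nucleus. Smad6 and Smad7 are inhibitory Smads that the pathway itself induces, Ski and SnoN (encoded by Skil) hold Smad complexes in a repressed state, and the Smurf ubiquitin ligases mark receptors and Smads for degradation. In the arterial wall these signals are known for setting the contractile state of smooth muscle and the deposition of collagen and elastic fibers.

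The start sites of the genes with the largest differences are shown first, because Smad proteins act at short DNA elements near such sites. Each window runs from 250 bases before to 50 bases after the start annotated by RefSeq, on build GRCm38.p6. Of the 36 genes, 26 had 29 such windows. Shown are the 6 genes with the largest rise among those with a single window, and Tgfb1, the fallen gene with a window. Capitals mark GGCGCC, the core of BMP-responsive elements, which reads the same on both strands, and CAGAC, the Smad box, or its complement GTCTG; the 2 motifs can share an end base. The windows lie at chr2:32646345-32646644 (plus strand) for Eng, chr1:119422199-119422498 (minus) for Inhbb, chr2:113758599-113758898 (minus) for Grem1, chr9:116175314-116175613 (minus) for Tgfbr2, chr9:64022010-64022309 (minus) for Smad6, chr4:136143572-136143871 (plus) for Id3 and chr7:25686752-25687051 (plus) for Tgfb1.
Eng: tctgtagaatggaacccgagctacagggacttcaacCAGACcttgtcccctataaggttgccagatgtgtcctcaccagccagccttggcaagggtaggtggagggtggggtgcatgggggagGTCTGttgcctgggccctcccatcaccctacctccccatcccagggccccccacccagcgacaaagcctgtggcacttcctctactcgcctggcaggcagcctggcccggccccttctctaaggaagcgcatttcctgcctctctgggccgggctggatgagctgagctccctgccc
Inhbb: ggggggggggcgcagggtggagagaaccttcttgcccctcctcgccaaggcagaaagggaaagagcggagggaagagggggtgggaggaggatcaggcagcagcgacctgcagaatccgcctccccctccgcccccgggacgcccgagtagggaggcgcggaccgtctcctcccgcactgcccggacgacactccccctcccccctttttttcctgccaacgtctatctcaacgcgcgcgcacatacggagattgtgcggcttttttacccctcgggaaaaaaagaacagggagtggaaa
Grem1: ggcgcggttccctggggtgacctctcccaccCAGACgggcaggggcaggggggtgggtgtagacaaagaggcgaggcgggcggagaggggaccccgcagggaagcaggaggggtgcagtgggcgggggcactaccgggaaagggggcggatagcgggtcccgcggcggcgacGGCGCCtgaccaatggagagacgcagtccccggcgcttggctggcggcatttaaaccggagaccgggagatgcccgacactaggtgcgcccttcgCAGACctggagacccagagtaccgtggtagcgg
Tgfbr2: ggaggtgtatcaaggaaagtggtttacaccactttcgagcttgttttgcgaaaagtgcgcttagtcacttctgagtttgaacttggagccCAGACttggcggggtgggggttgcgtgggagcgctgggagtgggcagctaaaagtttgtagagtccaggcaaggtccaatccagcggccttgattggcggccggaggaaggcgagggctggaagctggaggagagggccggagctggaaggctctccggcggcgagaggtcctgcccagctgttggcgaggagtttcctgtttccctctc
Smad6: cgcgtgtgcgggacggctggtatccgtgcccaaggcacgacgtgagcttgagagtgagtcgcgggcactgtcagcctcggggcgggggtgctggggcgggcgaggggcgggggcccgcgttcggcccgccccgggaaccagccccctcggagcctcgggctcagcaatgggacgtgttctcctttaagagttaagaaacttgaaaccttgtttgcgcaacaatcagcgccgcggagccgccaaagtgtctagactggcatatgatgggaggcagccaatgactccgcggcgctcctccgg
Id3: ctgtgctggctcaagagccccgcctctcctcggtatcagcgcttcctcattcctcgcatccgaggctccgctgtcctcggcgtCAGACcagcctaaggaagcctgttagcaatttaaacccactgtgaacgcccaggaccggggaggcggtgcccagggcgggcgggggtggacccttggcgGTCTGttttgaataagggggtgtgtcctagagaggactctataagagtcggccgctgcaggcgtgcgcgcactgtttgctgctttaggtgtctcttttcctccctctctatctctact
Tgfb1: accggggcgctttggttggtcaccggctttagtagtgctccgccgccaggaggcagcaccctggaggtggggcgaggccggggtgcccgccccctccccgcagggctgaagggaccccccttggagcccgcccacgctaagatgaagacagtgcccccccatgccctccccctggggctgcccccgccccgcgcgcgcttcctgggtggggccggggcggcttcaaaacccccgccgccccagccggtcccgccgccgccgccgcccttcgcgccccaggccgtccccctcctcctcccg

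GGCGCC was present in 12 of the 29 windows (41.4%), against 11.9% of the 32851 windows of that length in the whole RefSeq table. CAGAC was present in 12 of 29 as well (41.4%), against 49.6% of all windows. Smad5 alone has 3 windows, and 2 of them overlap and both hold GGCGCC. The 29 windows of the 26 genes are thus not independent. The windows of these genes were also richer in G and C, with a median of 67.0% against 52.7%, and GGCGCC consists of those bases alone. Among the printed windows, Grem1 held both motifs, Eng and Id3 held CAGAC or its complement at 2 positions, and Tgfbr2 at 1. Inhbb, Smad6 and Tgfb1 held neither of these exact strings. The shorter parts AGAC and GTCT were not searched for, and the Smad6 window holds them side by side, as gtctagac. A match of letters is a description of the sequence and does not show binding.

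Before the pathway genes, the genotype labels and the cell type were checked. Pdk4 itself had 570, 639 and 421 counts in Pdk4fl/fl and 110, 182 and 141 in Pdk4SMKO, a log2 fold change of -2.34 ± 0.22 (SE, n = 3 against 3, adjusted p = 4.5e-06), so reads of the gene were fewer but remained in every Pdk4SMKO library. The loxP sites flank only part of Pdk4 and the counts cover the whole gene. Intact transcript and transcript of a recombined allele therefore cannot be told apart here. Library totals were 16526044 to 22481670 counts. The genotypes stood far apart as a whole: scaling factors were 0.784 to 0.838 in Pdk4fl/fl and 1.21 to 1.26 in Pdk4SMKO, and 8349 of 14085 tested genes (59.3%) were called different, 4616 higher (32.8%) and 3733 lower (26.5%) in Pdk4SMKO. With library size alone as the scale the split became 6184 higher and 2390 lower. Acta2, the smooth muscle actin used in the study to check purity, was abundant, at 188 to 268 CPM (read counts per unit of library size after TMM scaling, used for levels throughout) in Pdk4fl/fl and 621 to 768 in Pdk4SMKO, but Myh11, the myosin that defines contractile smooth muscle and drives the Cre, had only 8 to 10 counts in the former and 44 to 62 in the latter. Over 10 smooth muscle markers the summed level was 789 to 816 CPM against 739 to 974, with 6 of them higher (Acta2 and Myh11 among them), 3 lower (Smtn, Tagln and Cnn1) and 1 not called. Summed levels of 8 mesothelial markers were 74.2 to 99.99 CPM in Pdk4fl/fl and 723 to 1325 in Pdk4SMKO, and those of 8 fibroblast markers were 159 to 196 and 1380 to 2832. All 7 mesothelial markers tested were called higher. Of the fibroblast markers 5 were higher, 1 was lower (Dpt) and 2 were not called (Pdgfra and Pi16), and the sum was carried by Col14a1, at 21.9 to 27.8 and 1042 to 2166 CPM, and Dcn. The summed level of 6 pericyte markers was 181 to 266 and 366 to 574 CPM. Pdgfrb made up most of it, at 165 to 230 and 314 to 524 CPM. Of the 5 pericyte markers tested, 3 were higher (Pdgfrb, Notch3 and Rgs5), 1 was lower (Abcc9) and 1 was not called (Cspg4). Rgs5 overlapped between the genotypes. The summed level of 8 macrophage markers was 22.7 to 40.1 and 62.8 to 64.1 CPM. Of the macrophage markers, 6 were called higher, with Cd14 at 1.29 to 2.13 and 32.3 to 54.1 CPM making up most of the Pdk4SMKO sum and C1qa, C1qb, Adgre1 and Tyrobp at 0 counts in all 3 Pdk4fl/fl libraries. Cd68, the most abundant of them in Pdk4fl/fl, was called lower, at 21.3 to 37.9 and 2.94 to 6.81 CPM. For 8 endothelial markers the sum was 14.1 to 23.7 and 2.94 to 5.62 CPM, and the defining genes Cdh5, Tie1, Emcn and Cldn5 had 0 to 2 counts in every library. Xist, transcribed from the inactive X chromosome of female cells, had 3 to 5 counts in Pdk4fl/fl and 321 to 610 in Pdk4SMKO. The study's methods describe male mice only, and a Myh11-Cre transgene that is Y-linked and so inherited by males alone. The Xist counts are thus at odds with the described origin of the Pdk4SMKO libraries, and the reason was not tested. Every genotype difference below goes together with these marker and Xist differences, whose part in the results was not tested. In bulk RNA, fewer cells of a type and less RNA per cell cannot be told apart.

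In all, 22 of the 36 genes were called different between the genotypes, meaning an adjusted p under 0.05 by edgeR's quasi-likelihood test over all 14085 genes and at least a 2-fold change. Of these, 18 were higher in Pdk4SMKO, 50% of the list against 32.8% of all tested genes, and 4 were lower, 11.1% against 26.5%, while the 61.1% called in either direction stood close to the 59.3% of the whole table. The remaining 14 were not called. The median log2 fold change was 1.16 over the 36 genes and 0.12 over all tested genes. The 4 genes Acvrl1, Id4, Inhbb and Tgfbi passed the filter on low counts only through the Pdk4SMKO libraries, so for them a difference was built into being tested. Without them 14 of 32 were higher and 4 lower, with a median of 0.58. The background shares above still include such genes. With at least 10 counts required in every library, the median was 0.72 over 33 of the genes. Over all 11301 genes so tested it was 0.043, with 3165 higher and 2785 lower. The 3 libraries of one genotype lay wholly apart from the 3 of the other for 31 of the 36 genes, a separation seen in 81.8% of all tested genes. Leaving out any single library left 18 or 19 genes higher and 4 lower. With library size alone as the scale, the median fold change over all genes moved up by 0.61 on the log2 scale, and the counts became 23 higher and 2 lower.

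**Figure D1:**
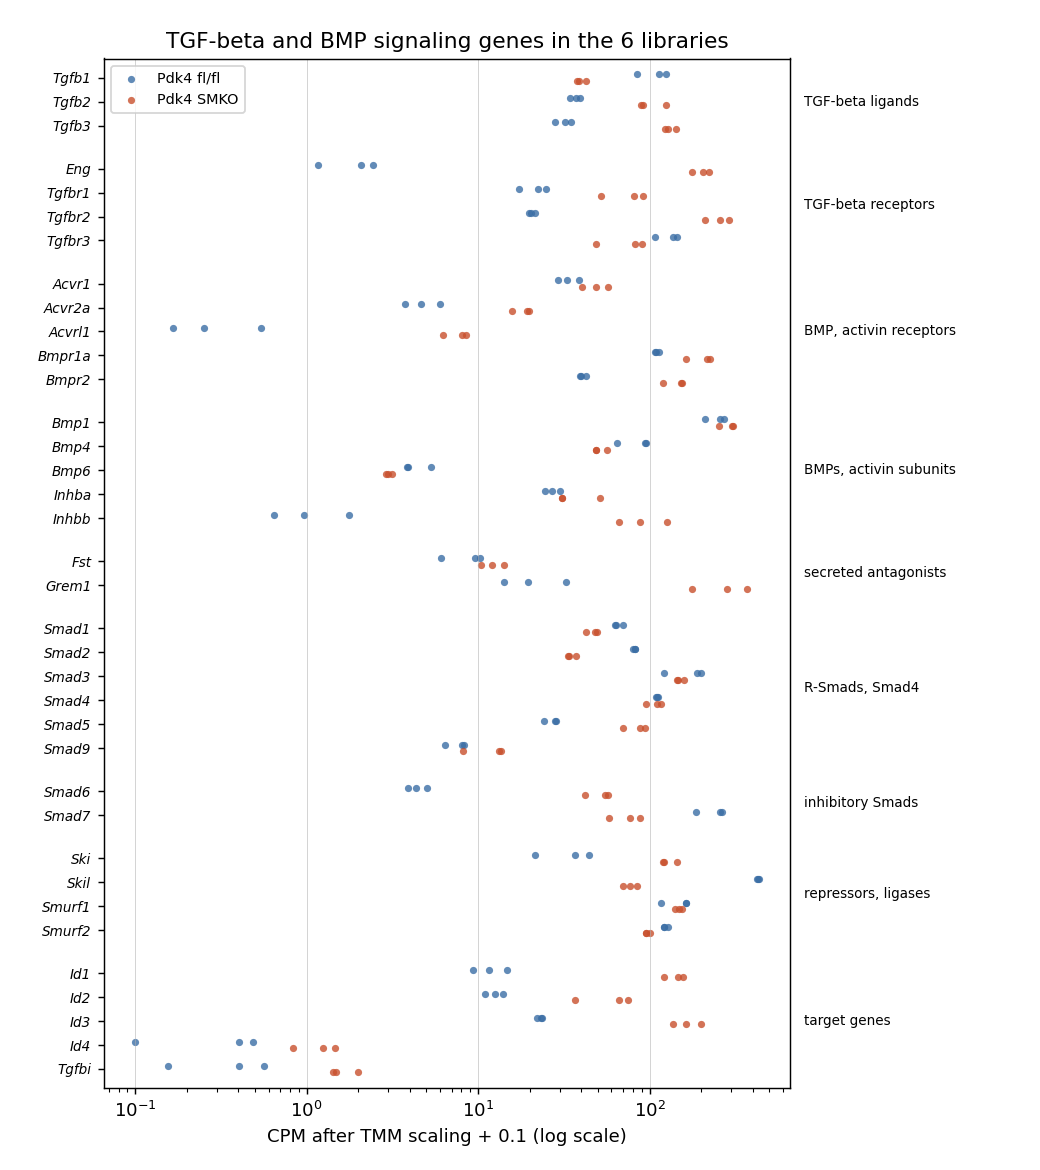
Level of each of the 36 genes in each library, as CPM after TMM scaling plus 0.1 on a log axis, with Pdk4fl/fl libraries in blue and Pdk4SMKO libraries in red, grouped by role. The colors lie far apart for Eng, Inhbb and Acvrl1 and overlap for Smad3, Smad4, Smad9, Bmp1 and Smurf1.

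The 3 TGF-beta ligands moved in opposite directions. Tgfb1, the ligand best known from injured arteries, had 124, 114 and 84.5 CPM in the Pdk4fl/fl libraries and 38.9, 42.3 and 37.4 CPM in the Pdk4SMKO libraries. The genotypes did not overlap, and Tgfb1 fell 2.72-fold (log2 fold change -1.44 ± 0.16, SE, adjusted p = 1.3e-05), a change that was under 2-fold with library size alone as the scale (-0.84). Tgfb2 had 39.2, 37.1 and 34.4 CPM in Pdk4fl/fl against 124, 91.4 and 89.2 CPM, a 2.75-fold rise (1.46 ± 0.15, adjusted p = 1.0e-05). Tgfb3 had 34.6, 32.2 and 27.8 CPM against 123, 143 and 128 CPM, a 4.15-fold rise (2.05 ± 0.13, adjusted p = 3.4e-07). Part of the Tgfb3 span is shared with Ttll5 on the opposite strand, which had 2106 counts in all against 9741 for Tgfb3, and whether counting used strand is not given in the sources used here.

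These shifts changed which ligand made up most of the family's transcript. Per kilobase of transcript, Tgfb1 was 59.3%, 58.8% and 54.3% of the 3 ligands in the Pdk4fl/fl libraries and 11.9%, 12.7% and 12.3% in the Pdk4SMKO libraries. Tgfb3 was 24.5%, 24.6% and 26.5% and became 55.3%, 63.6% and 62.2%. Tgfb2 was 17.3% ± 1.6 (SD, n = 3) and 27.3% ± 4.8. Such a share is set within a library and does not depend on scaling between libraries. The sum of the 3 ligands was 37.2 ± 5.5 CPM per kilobase in Pdk4fl/fl and 64.2 ± 3.2 in Pdk4SMKO. For each of these shares, as for all but Smad9, Id3 and Id4 among the 23 shares examined in 9 families, the genotypes did not overlap, which gives an exact two-sided permutation p of 0.1 (0.115 after Benjamini-Hochberg adjustment), the smallest that 3 against 3 allows.

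Of the 4 TGF-beta receptor genes, 3 were higher, against 32.8% of all tested genes. Eng encodes endoglin, an accessory receptor best known from endothelium. It had 16, 36 and 31 counts in the Pdk4fl/fl libraries and 5040, 4094 and 3626 in the Pdk4SMKO libraries, or 1.07, 1.98 and 2.35 CPM against 221, 204 and 178 CPM. This was a 112-fold rise (6.81 ± 0.24, adjusted p = 1.4e-08), the largest log2 fold change of the 36 genes. In the Pdk4SMKO libraries the summed endothelial markers were lower, with Cdh5, Tie1, Emcn and Cldn5 at 0 to 2 counts in every library. The mesothelial and fibroblast sums were higher. The part of these cell types in the Eng result was not tested. Eng overlaps Fpgs on the opposite strand, which had 2341 counts in all against 12843 for Eng.

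Tgfbr2 encodes the type II receptor that binds TGF-beta and is needed for its signal. It had 19.8, 21.2 and 20.3 CPM in Pdk4fl/fl and 209, 290.2 and 258 CPM in Pdk4SMKO, a 12.4-fold rise (3.63 ± 0.15, adjusted p = 2.8e-08) with tight values in the control libraries. Tgfbr1, the type I kinase that acts with it, had 24.7, 22.3 and 17.2 CPM against 51.8, 80.9 and 91.4 CPM, a 3.49-fold rise (1.80 ± 0.22, adjusted p = 3.1e-05). Betaglycan, the co-receptor encoded by Tgfbr3 that presents TGF-beta2, went the other way in level, with 144, 136 and 107 CPM against 48.5, 90.3 and 82.1 CPM. Its log2 fold change of -0.81 ± 0.22 (adjusted p = 0.00584) did not reach 2-fold. Per kilobase, Tgfbr3 was therefore 72.1%, 71.2% and 69.1% of the 3 Tgfbr transcripts in Pdk4fl/fl and 12.05%, 15.3% and 14.9% in Pdk4SMKO, and Tgfbr2 was 13.9%, 15.6% and 18.4% and became 73.3%, 69.2% and 66.2%. The order of levels per kilobase was Tgfbr3 (19.2), Tgfbr2 (4.27) and Tgfbr1 (3.597 CPM per kilobase) in Pdk4fl/fl and Tgfbr2 (52.8), Tgfbr1 (12.6) and Tgfbr3 (10.9) in Pdk4SMKO.

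**Figure D2:**
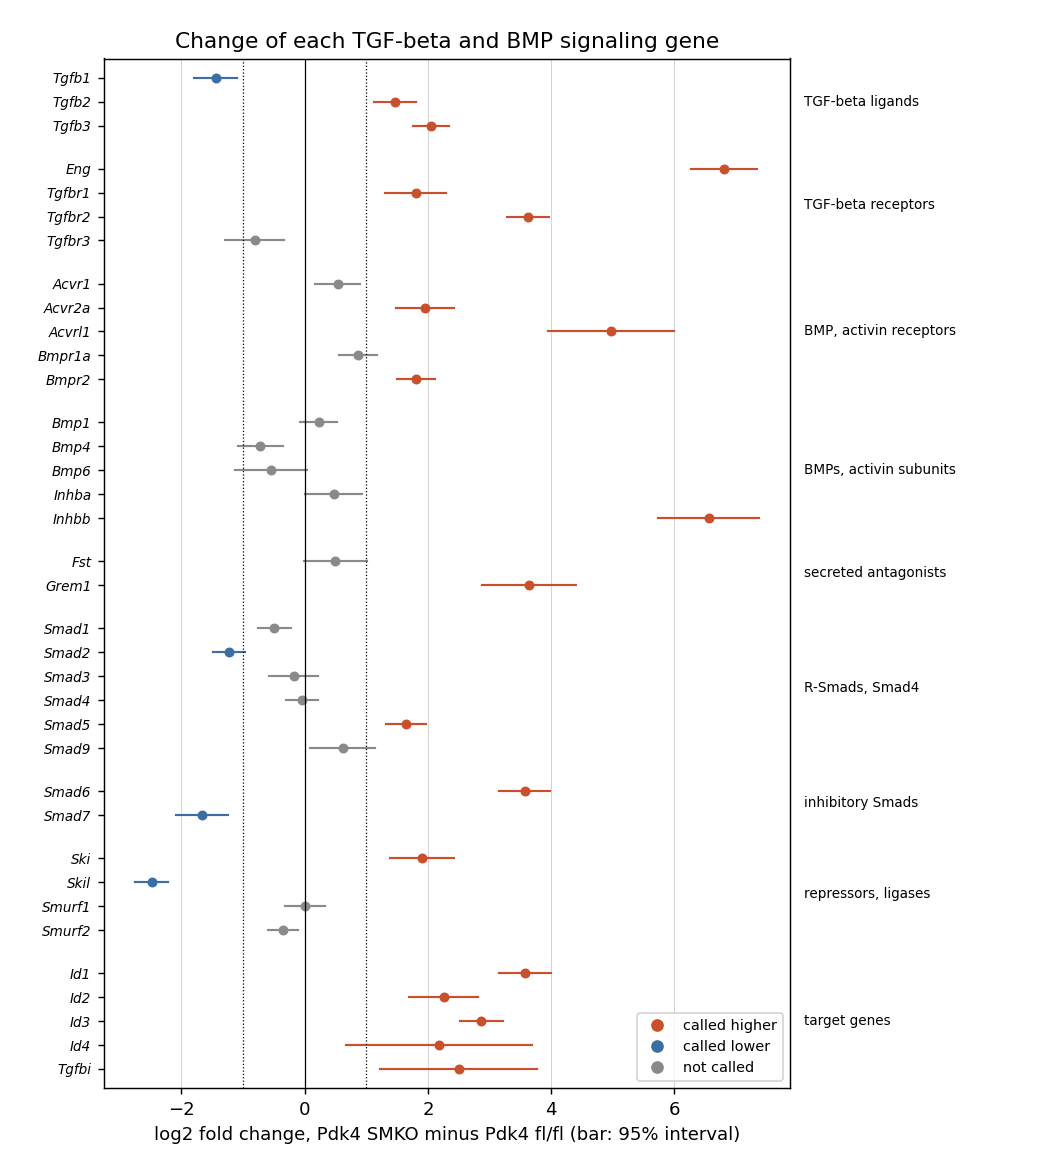
Log2 fold change of each gene, Pdk4SMKO minus Pdk4fl/fl, with its 95% interval from edgeR; red points were called higher, blue points lower and gray points not called, and dotted lines mark a 2-fold change. Eng (6.81) and Inhbb (6.55) lie farthest to the right, and Skil (-2.48) farthest to the left.

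All 5 BMP and activin receptor genes of the list had higher levels in Pdk4SMKO. Of these, 3 were called higher, against 32.8% of all tested genes, and Acvrl1 passed the filter on low counts only through Pdk4SMKO. Related receptors outside the list were mixed, with Acvr1b higher (1.23), Bmpr1b not called (-0.01) and Acvr2b lower (-1.85). Acvrl1 encodes ALK1, a type I receptor for BMP9 and BMP10 that works together with endoglin. It was nearly absent from Pdk4fl/fl, with 1, 8 and 2 counts, and had 182, 170 and 125 counts in Pdk4SMKO, a 34.4-fold rise (4.97 ± 0.46, adjusted p = 3.6e-06) that rests on few counts in the control and was 6.07 on the log2 scale without Pdk4fl/fl replicate 2. Bmpr2, the BMP type II receptor whose mutations cause heritable pulmonary arterial hypertension, had 42.7, 39.4 and 39.6 CPM against 119, 154 and 152 CPM, a 3.49-fold rise (1.80 ± 0.14, adjusted p = 9.8e-07). Acvr2a, a type II receptor for activins and BMPs, had 5.87, 4.56 and 3.63 CPM against 15.8, 19.6 and 19.2 CPM, a 3.88-fold rise (1.95 ± 0.21, adjusted p = 1.4e-05). Acvr2a is an uncertain case, since Orc4 overlaps it on the opposite strand with 12631 counts in all against 1363 for Acvr2a.

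The other 2 type I receptors stayed under 2-fold. Bmpr1a, which encodes the main BMP type I receptor ALK3, had 109.5, 108 and 114 CPM against 163, 216 and 225 CPM (0.87 ± 0.14, adjusted p = 2.2e-04), and passed 2-fold with upper-quartile scaling (1.08), with library size alone (1.47) and without Pdk4SMKO replicate 1 (1.01). Acvr1, which encodes ALK2, had 38.6, 32.9 and 29.1 CPM against 40.5, 57.03 and 48.6 CPM (0.54 ± 0.16, adjusted p = 0.0116), and passed 2-fold only with library size alone (1.14). Neither gene's genotypes overlapped, although the gap was narrow for Acvr1. Bmpr1a remained the most abundant receptor of the 5 per kilobase in both genotypes, at 17.4 and 31.7 CPM per kilobase.

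Among the activin subunits and BMPs, a single gene was called. Inhbb, which encodes the beta-B subunit of activin B and inhibin B, had 13, 10 and 22 counts in the Pdk4fl/fl libraries and 1501, 2527 and 1787 counts in the Pdk4SMKO libraries, a 90.7-fold rise in CPM (6.55 ± 0.37, adjusted p = 1.3e-07). Inhba, which encodes the beta-A subunit of activin A, had 29.9, 27.1 and 24.4 CPM against 51.1, 30.8 and 30.6 CPM. Replicate 1 of Pdk4SMKO stood above the other 2, and the difference did not pass the test (0.47 ± 0.21, adjusted p = 0.0594). Inhbb was 1.33%, 0.935% and 3.08% of the transcript of both subunits per kilobase in Pdk4fl/fl and 37.5%, 65.5% and 57.1% in Pdk4SMKO. A nearly pure beta-A make-up of these transcripts thus became a mixed one, again with replicate 1 apart from the others.

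None of the 3 BMP genes in the list was called. Bmp4, a ligand of the BMP branch, had 95.1, 94.1 and 64.3 CPM against 48.5, 56.1 and 48.9 CPM (-0.72 ± 0.16, adjusted p = 0.00214), lower in every library but by less than 2-fold. Bmp6, another ligand, was low at 2.80 to 5.22 CPM in all libraries (-0.55 ± 0.26, adjusted p = 0.0740), and its sign turned with library size alone. Bmp1, which despite its name is a metalloproteinase that trims procollagens and releases latent TGF-beta, was the most abundant of the group, with 258, 271 and 210.2 CPM against 303, 307 and 255 CPM and overlapping genotypes (0.22 ± 0.14, 95% interval -0.08 to 0.53, adjusted p = 0.154).

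Of the secreted antagonists, Grem1 was called and Fst was not. Grem1 encodes gremlin 1, which binds and neutralizes BMP2, BMP4 and BMP7. It had 32.7, 19.5 and 14.1 CPM in Pdk4fl/fl and 176, 368 and 281 CPM in Pdk4SMKO, a 12.4-fold rise (3.64 ± 0.34, adjusted p = 4.6e-06). The spread was wide in both genotypes, but the lowest Pdk4SMKO library was still well above the highest control. The summed fibroblast markers were at 1380, 2832 and 2601 CPM in the same 3 Pdk4SMKO libraries, and their part in the result was not tested. Follistatin, the activin-binding protein encoded by Fst, had 9.53, 10.2 and 5.98 CPM against 10.4, 14.1 and 11.97 CPM (0.50 ± 0.23, adjusted p = 0.0696).

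Of the 6 signal-carrying Smads, 1 was higher, 1 was lower and 4 were not called. In the TGF-beta branch, Smad2 had 82.6, 82.0 and 79.7 CPM in Pdk4fl/fl and 33.2, 36.9 and 33.9 CPM in Pdk4SMKO, a 2.35-fold fall (-1.23 ± 0.11, adjusted p = 4.0e-06) with little spread on either side, which was under 2-fold with library size alone (-0.63). Smad3 overlapped between the genotypes, with 199, 190.3 and 121 CPM against 159, 145 and 146 CPM (-0.18 ± 0.18, 95% interval -0.58 to 0.21, adjusted p = 0.364), and its sign turned with upper-quartile scaling (0.03) and library size alone (0.42). Smad4, the partner common to both branches, had 110.1, 109.6 and 112 CPM against 95.4, 117 and 111 CPM (-0.04 ± 0.12, 95% interval -0.30 to 0.22, adjusted p = 0.769), with a sign that turned under several settings. Of the transcript of Smad2 and Smad3 per kilobase, Smad2 was 53.0%, 54.0% and 64.3% in Pdk4fl/fl and 36.2%, 40.9% and 38.8% in Pdk4SMKO. In counts not divided by length Smad3 led in both genotypes, with Smad2 at 33.1% and 18.8%.

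Smad5 and Smad1, the main R-Smads of the BMP branch, exchanged places in their share of the transcript. Smad5 had 24.3, 28.2 and 27.9 CPM against 70.2, 87.8 and 93.6 CPM, a 3.13-fold rise (1.65 ± 0.15, adjusted p = 2.9e-06). Smad1 had 63.7, 70.0 and 63.0 CPM against 42.3, 47.97 and 49.5 CPM (-0.49 ± 0.12, adjusted p = 0.00351), under 2-fold and with a sign that turned with library size alone (0.11). Per kilobase, Smad1 was 69.3%, 68.9% and 68.3% of the 3 BMP R-Smads in Pdk4fl/fl and 39.5%, 36.2% and 35.6% in Pdk4SMKO, whereas Smad5 was 21.1%, 22.2% and 24.2% and became 52.3%, 52.9% and 53.7%. Smad9, the least abundant, had 7.999, 8.18 and 6.28 CPM against 8.08, 13.1 and 13.5 CPM (0.62 ± 0.24, adjusted p = 0.0332), and its share overlapped between genotypes at 8.65% ± 1.06 and 9.95% ± 1.44 (exact permutation p = 0.3). The sum of the 3 was 16.1 ± 0.9 CPM per kilobase in Pdk4fl/fl and 21.4 ± 2.8 in Pdk4SMKO.

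The 2 inhibitory Smads moved in opposite directions. Smad6, which mainly restrains the BMP branch, had 4.93, 3.79 and 4.24 CPM against 55.1, 56.9 and 42.1 CPM, an 11.9-fold rise (3.57 ± 0.19, adjusted p = 8.2e-08). Smad7, which restrains both branches at the receptor, had 258, 264 and 186 CPM against 88.4, 76.5 and 58.2 CPM, a 3.17-fold fall (-1.67 ± 0.19, adjusted p = 1.6e-05). Smad7 made up 97.4%, 97.997% and 96.9% of their joint transcript per kilobase in Pdk4fl/fl and 53.0%, 48.5% and 49.2% in Pdk4SMKO. An almost complete excess of Smad7 thus became near-equal amounts, at 16.04 CPM per kilobase for Smad6 and 16.3 for Smad7. In counts not divided by length Smad7 was 98.2% and 59.0%.

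Ski and Skil, the paired Smad repressors, also crossed. Skil, which encodes SnoN and is itself an early TGF-beta target, had 424, 436 and 431 CPM in Pdk4fl/fl and 84.0, 70.2 and 76.6 CPM in Pdk4SMKO. This 5.59-fold fall (-2.48 ± 0.12, adjusted p = 5.8e-08) was the largest fall of the 36 genes. Ski had 44.4, 36.8 and 21.3 CPM against 122, 144 and 119 CPM, a 3.76-fold rise (1.91 ± 0.23, adjusted p = 2.9e-05). Ski was 15.4%, 12.8% and 7.95% of the pair per kilobase in Pdk4fl/fl and 71.6%, 78.2% and 73.0% in Pdk4SMKO, while the sum of the pair went from 50.5 ± 2.0 to 31.0 ± 2.0 CPM per kilobase.

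Neither Smurf gene was called. Smurf1 had 163, 164 and 117 CPM against 148, 142 and 155 CPM (0.00 ± 0.14, 95% interval -0.32 to 0.33, adjusted p = 0.979), with Pdk4fl/fl replicate 3 below the other 5 libraries and a sign that turned with other scalings. Smurf2 had 128, 121 and 122 CPM against 100.1, 94.95 and 95.3 CPM (-0.35 ± 0.11, adjusted p = 0.0113), and its sign turned with library size alone (0.25).

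**Figure D3:**
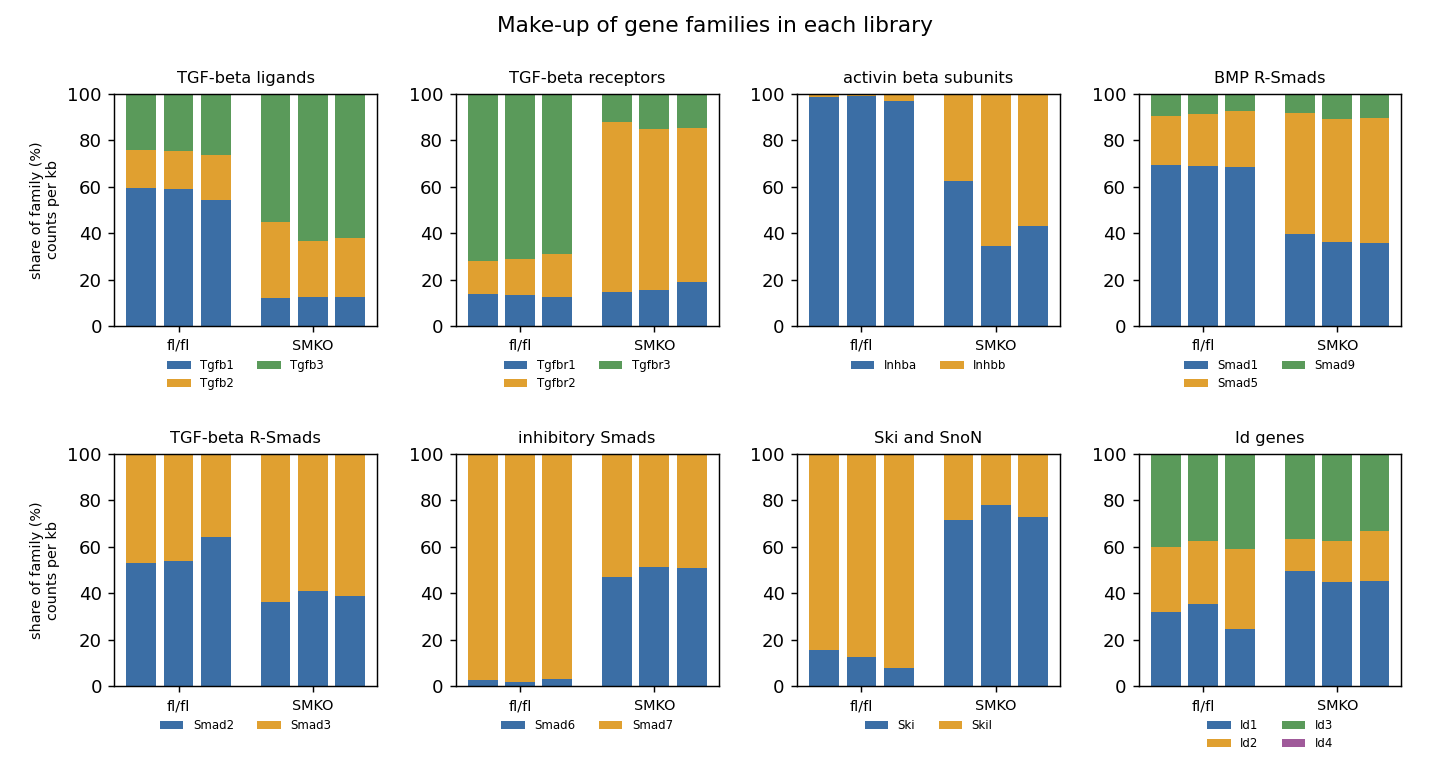
Share of each member in its family's transcript, in percent of counts per kilobase, with 1 bar for each library (3 Pdk4fl/fl on the left and 3 Pdk4SMKO on the right of each panel). On this scale the leading member differs between genotypes for the TGF-beta ligands, the Tgfbr receptors, the BMP R-Smads, and Ski against Skil. It also differs for Smad2 against Smad3 and for the Id genes, but for these it does not without division by length. The 2 inhibitory Smads come to near-equal shares, and the activin beta subunits to a mixed make-up.

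All 5 genes filed as targets in the list were higher in Pdk4SMKO, against 32.8% of all tested genes. Id4 and Tgfbi passed the filter on low counts only through Pdk4SMKO, so for them a difference was built into being tested. Genes that the pathway also induces but that are filed under other roles did not all rise. Smad6 was higher (3.57), and Smad7 (-1.67) and Skil (-2.48) were lower. The Id genes encode helix-loop-helix proteins without a DNA-binding region, which block other factors of that class and are the standard readout of BMP signaling. Id1 had 11.5, 14.7 and 9.23 CPM in Pdk4fl/fl and 121, 157 and 146 CPM in Pdk4SMKO, an 11.9-fold rise (3.57 ± 0.19, adjusted p = 9.7e-08). Id3 had 22.1, 23.4 and 23.2 CPM against 138, 201 and 163 CPM, a 7.30-fold rise (2.87 ± 0.16, adjusted p = 1.2e-07). Id2 had 10.9, 12.5 and 13.9 CPM against 36.8, 66.3 and 75.3 CPM, a 4.78-fold rise (2.26 ± 0.25, adjusted p = 1.5e-05). In all 3 the highest control library lay far below the lowest Pdk4SMKO library, and replicate 1 was the lowest of the Pdk4SMKO libraries.

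Id4 was scarce, with 0, 7 and 4 counts against 31, 23 and 15 (2.18 ± 0.68, adjusted p = 0.0122), and so was Tgfbi, which encodes a TGF-beta-induced matrix protein, with 7, 1 and 4 counts against 30, 38 and 28 (2.50 ± 0.57, adjusted p = 0.00210). Both passed the filter on low counts only through Pdk4SMKO, and both moved with single control libraries, Id4 to 1.62 without Pdk4fl/fl replicate 1 and 2.87 without replicate 2, and Tgfbi to 3.17 and 1.97 without the same libraries. The 4 Id genes together came to 32.9 ± 2.6 CPM per kilobase in Pdk4fl/fl and 262 ± 46 in Pdk4SMKO, a 7.98-fold difference. Within that sum Id1 went from 30.8% ± 5.4 to 46.6% ± 2.5 and Id2 from 29.8% ± 3.8 to 17.5% ± 3.9, while Id3 overlapped between the genotypes at 39.0% ± 2.1 and 35.6% ± 2.3 (exact permutation p = 0.2). In counts not divided by length Id3 led in both genotypes, at 48.4% in Pdk4fl/fl and 45.3% in Pdk4SMKO.

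A wider list of 79 genes of the same pathways was read beside the 36. A row was found for 77, 56 had enough counts for the test, 29 were higher and 15 lower in Pdk4SMKO, and 12 were not called. The 56 were thus 51.8% higher and 26.8% lower, against 32.8% and 26.5% of all tested genes, so the share of lower genes stood at the background. Their median log2 fold change was 1.07, against 0.12 over all tested genes. Of the 56, 5 passed the filter on low counts only through Pdk4SMKO and 0 only through Pdk4fl/fl, and 24 of the other 51 were higher and 15 lower.

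Of 4 other ligands tested, 3 were higher (75%) and 1 lower (25%), against 32.8% and 26.5% of all tested genes. Gdf6, a BMP-like ligand, had 0.439 to 0.733 CPM in Pdk4fl/fl and 7.11 to 10.45 CPM in Pdk4SMKO (3.93 ± 0.31, adjusted p = 1.4e-06), and Gdf11, a ligand of the activin branch, had 8.57 to 10.1 and 28.1 to 35.6 CPM (1.74 ± 0.16, adjusted p = 3.4e-06). Gdf15, a stress-induced distant relative, was lower, at 62.8 to 88.6 and 29.97 to 36.9 CPM (-1.24 ± 0.16, adjusted p = 3.8e-05). Of 6 other receptor and co-receptor genes tested, 3 were higher (50%) and 2 lower (33.3%). The BMP co-receptors Rgmb (3.57 ± 0.24) and Rgma (2.66 ± 0.28) and the activin type I receptor Acvr1b (1.23 ± 0.20) were higher. The type II receptor Acvr2b (-1.85 ± 0.31) and the pseudoreceptor Bambi (-1.79 ± 0.24), which blocks receptor signaling, were lower. Acvr2b thus went opposite to Acvr2a, whose own rise is uncertain because Orc4 overlaps it on the opposite strand.

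Proteins that store or activate latent TGF-beta were tested for 11 genes. Of these 6 were higher (54.5%) and 2 lower (18.2%), against 32.8% and 26.5% of all tested genes. Fbn1, which encodes the fibrillin that anchors latent complexes and is mutated in Marfan syndrome, had 60.0 to 78.7 CPM in Pdk4fl/fl and 725 to 848 CPM in Pdk4SMKO, an 11.6-fold rise (3.54 ± 0.15, adjusted p = 3.3e-08). Thbs1, the activator thrombospondin 1, had 343 to 503 and 2889.8 to 4198 CPM (3.00 ± 0.20, adjusted p = 3.9e-07), and Lrrc32, which tethers latent TGF-beta at the cell surface, had 6.21 to 8.53 and 46.7 to 63.0 CPM (3.00 ± 0.19, adjusted p = 2.5e-07). Ltbp2, the latent TGF-beta binding protein family member that does not bind TGF-beta, was lower, at 129.9 to 204 and 17.3 to 35.7 CPM (-2.72 ± 0.26, adjusted p = 5.4e-06).

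Among 9 other secreted antagonists tested, 6 were higher (66.7%) and 1 lower (11.1%), against 32.8% and 26.5% of all tested genes. Chordin, the BMP antagonist encoded by Chrd, had 3.47 to 4.78 CPM in Pdk4fl/fl and 57.4 to 103 CPM in Pdk4SMKO, a 20.2-fold rise (4.32 ± 0.25, adjusted p = 1.5e-07). Fstl3, a follistatin-like activin inhibitor, had 0 counts in all 3 Pdk4fl/fl libraries and 636, 412 and 296 counts in Pdk4SMKO, at least 108-fold higher when the control is set at 3 counts per library. Decorin, a TGF-beta-binding proteoglycan encoded by Dcn, was 4.69-fold higher (2.23 ± 0.27, adjusted p = 2.8e-05) and is also on the fibroblast marker list. Dand5, an antagonist of Nodal and BMPs, was lower (-1.16 ± 0.28, adjusted p = 0.00305). Intracellular regulators had the opposite balance, with 1 higher (8.3%), 6 lower (50%) and 5 not called of 12 tested. Fkbp1a, whose product FKBP12 holds type I receptors inactive, had 706 to 894 and 187 to 249 CPM (-1.87 ± 0.15, adjusted p = 1.7e-06). The corepressor Tgif1 (-1.81 ± 0.12) and the ubiquitin ligase Stub1 (-1.46 ± 0.12) were lower too, and Tab1, a partner of the TAK1 kinase, was higher (1.73 ± 0.16).

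Of 14 target genes tested outside the list, 10 were higher (71.4%) and 3 lower (21.4%), against 32.8% and 26.5% of all tested genes. Ccn2, the connective tissue growth factor named Ctgf in the table, had 28.9, 23.5 and 35.2 CPM in Pdk4fl/fl and 1920.5, 1099 and 1154 CPM in Pdk4SMKO, a 47.6-fold rise (5.58 ± 0.28, adjusted p = 6.3e-08). Col3a1, which encodes type III collagen, had 11.8, 10.0 and 7.72 CPM against 257, 515 and 277 CPM, a 35.5-fold rise (5.14 ± 0.31, adjusted p = 2.0e-07). Atoh8, a transcription factor induced by BMP signals in endothelium, was 21.4-fold higher (4.42 ± 0.23, adjusted p = 7.4e-08). On the other side, Snai2, which encodes the transition factor Slug, had 162, 159 and 189.6 CPM against 9.57, 10.2 and 14.2 CPM, a 15.0-fold fall (-3.91 ± 0.18, adjusted p = 4.3e-08). Smoothelin, a marker of contractile smooth muscle encoded by Smtn, fell 4.87-fold (-2.28 ± 0.19, adjusted p = 2.0e-06), and Runx2, the osteogenic factor that BMP2 induces in calcifying smooth muscle, fell 3.16-fold (-1.66 ± 0.15, adjusted p = 3.0e-06). Runx2 shares part of its span with Supt3, and Stub1 with Jmjd8, both on the opposite strand. Collagen genes are shared by smooth muscle cells, fibroblasts and mesothelial cells, whose marker sums are given above.

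**Figure D4:**
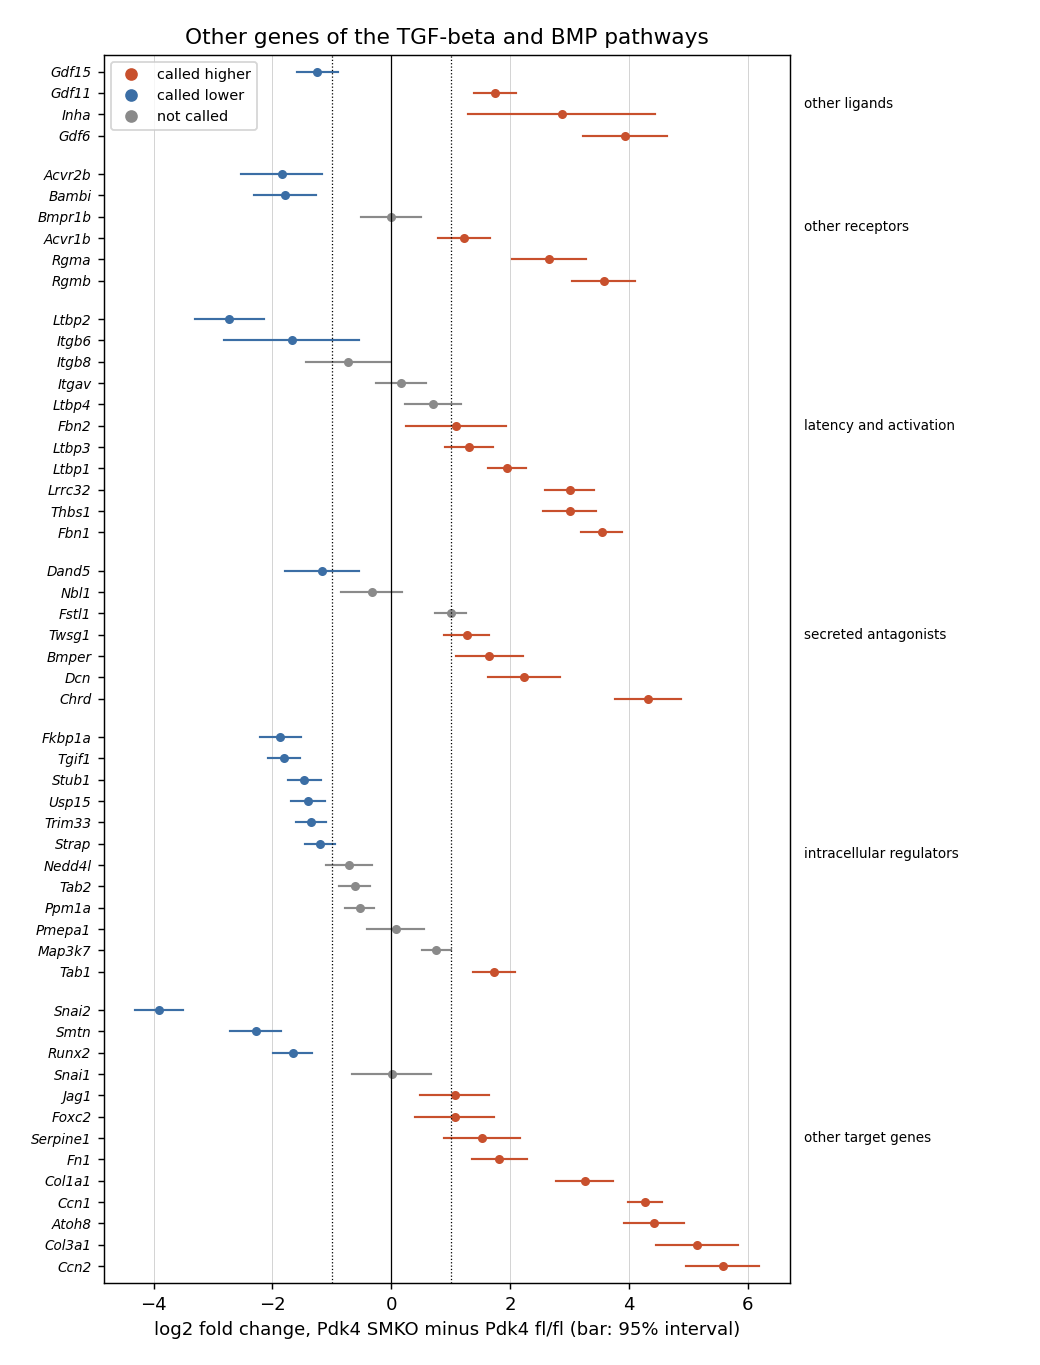
Log2 fold change, Pdk4SMKO minus Pdk4fl/fl, of 53 other pathway genes tested, with 95% intervals, by role; genes with at most 3 counts in every library of a genotype are left out. Intracellular regulators lie mostly to the left, and Ccn2 (5.58) and Snai2 (-3.91) mark the ends.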

How the data were processed

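Counts per gene were deposited by the authors as 1 table of raw read counts for 6 libraries, with gene positions and lengths. Gene identifiers belong to the C57BL/6NJ strain annotation, whereas GRCm39 is named in the submitters' processing notes, so positions from the table are not printed. Aligner, counter and strand setting are not given in the sources used here, and the labels and the methods name different library kits. Genotypes were taken from the labels.

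Counts were tested with edgeR 4.0.16 (quasi-likelihood test, TMM scaling, R 4.3.3) over the 14085 genes reaching 0.575 CPM in at least 3 libraries, with genotype as the only term. A gene was called where the Benjamini-Hochberg adjusted p was below 0.05 and the level changed 2-fold or more. The study used DESeq2 with the same cut-offs, and whether its p was the adjusted one is not clear from its methods. Levels are CPM after TMM scaling, and CPM per kilobase of the table's gene length where genes are compared. Errors beside fold changes are standard errors, and those beside levels and shares are SDs with n = 3. Library totals limit the precision of low counts, and 3 counts served as the floor (0.132 to 0.227 CPM). On counts simulated from the means and library totals of this comparison, edgeR recovered 200 of 200 changed genes among 13976, with 3 false calls. The changed genes were well counted, moved by large folds and were few, whereas 59.3% of tested genes were called in the real data. The simulation therefore checks the procedure and does not measure the accuracy of the calls reported here.

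Values are printed for Pdk4, all 36 genes, and, of the 79 other pathway genes, for up to 3 called higher and 3 called lower in each role with a mean of at least 5 CPM. Marker lists are given as sums. Members, lists and tests were chosen with earlier results of these data known. Zfyve9 and Tgif2 had no row. Promoter windows are from RefSeq (GRCm38.p6), with none for Tgfb3, Tgfbr3, Smad2, Smad4, Smad7, Bmp1, Acvrl1, Id1, Fst and Skil. Alternatives were DESeq2 1.42.0, scaling by RLE, by upper quartile or by library size, other count filters, a replicate block, and leaving out each library.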

Additional observations from a re-analysis of the deposited data

How the results depend on the processing

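With library size alone as the scale, 2 of the 36 genes were called lower in place of 4 and 8 of the other pathway genes in place of 15, and Tgfb1 (-0.84) and Smad2 (-0.63) were no longer past 2-fold, while Smad9 (1.22), Acvr1 (1.14), Inhba (1.08), Fst (1.10) and Bmpr1a (1.47) were. With an adjusted p alone, 8 were lower. The sign turned with library size alone for Smad1 (0.11), Smad3 (0.42), Smad4 (0.57), Bmp6 (0.056) and Smurf2 (0.25), with upper-quartile factors for Smad3 (0.031) and Smad4 (0.17), with no filter (0.0093) and with a minimum of 10 counts per library (0.060) for Smad4, and with RLE factors and DESeq2 for Smurf1 (-0.028 in both). Leaving out single libraries gave -0.090 to 0.051 for Smad4, with the positive value without Pdk4SMKO replicate 1, and -0.152 to 0.091 for Smurf1, negative without replicate 3 of either genotype. Scaling moved the median of all genes by 0.21 (upper-quartile) and 0.61 (library size alone) on the log2 scale; these changes follow from the scale itself. Shares within families do not depend on it. Without division by gene length, 10 of 23 differences in share moved by more than the spread and none turned sign, among them Inhbb (66.5 percentage points in place of 51.6) and Smad6 (39.2 in place of 47.2). Across 465 values of single genes under alternatives, 442 kept their direction and side of the threshold. That minimum left 33 of the 36 genes. Depth limits Acvrl1, Id4 and Tgfbi.

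The labels do not say that the replicate numbers pair the libraries, and the check did not settle it: same-numbered libraries had deviations with correlations of 0.03, 0.04 and 0.12, and 3 of 3 Pdk4fl/fl and 2 of 3 Pdk4SMKO libraries correlated best with their own number, a hint from the data. A replicate block gave 8281 calls over all genes in place of 8349 and the same call for all 36 genes.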
